A study of Mus musculus with 6 samples.

Results

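The 9 genes described here, F13a1, F10, F7, F3, Thbd, Procr, Plau, Plaur and Serpinb2, encode proteins of blood coagulation and fibrinolysis. They were taken by gene name, with every probe that is not a control: 3 probes of F13a1, 2 of Plau and 1 of each other gene, 12 probes in all. The arrays held 56605 such probes under 37074 gene names. All 12 member probes were among the 27874 probes that were tested, kept because the spot was well above background in both replicates of some cell fraction. F7 and 1 probe of F13a1 met that condition through Fr3 alone.

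Coagulation ends in a fibrin mesh. Tissue factor, the product of F3, binds factor VII and starts a cascade of proteases in which factor X cuts prothrombin to thrombin, thrombin cuts fibrinogen to fibrin, and factor XIII crosslinks the fibrin. Thrombomodulin (Thbd) and the protein C receptor (Procr) turn thrombin toward an anticoagulant path, and urokinase (Plau), held at the cell surface by its receptor (Plaur), makes the plasmin that dissolves fibrin, under the control of inhibitors such as plasminogen activator inhibitor 2 (Serpinb2). Macrophages are known to make several of these proteins, the A subunit of factor XIII among them.

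RNA was measured in mononuclear phagocytes of the mouse sublingual mucosa (BALB/c, an inbred strain), which had been painted repeatedly with the fluorescent hapten FITC. Fr3 was the F4/80+CD206hi fraction, Fr2 the CD11c-F4/80+CD206- fraction and Fr1 the CD11c+CD206- fraction; strain, painting, digestion of the tongue tissue with collagenase and DNase, and sorting were common to all of them. There were 2 arrays per fraction, which the series design gives as independent experiments; the sources used here do not give the number of mice in a sort. The RNA passed through whole-transcriptome amplification, was labelled with Cy3 and hybridised to 1-colour Agilent arrays with 60-base probes. Unpainted tissue was not analysed here.

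The probes whose values carry the results are shown here so that their place and base make-up can be read, in lower case with every T in capitals, since the replicate arrays differed by the T content of the probe. The 3 F13a1 probes lie on chromosome 13 (mm9, the build named in the file headers), and the files list their coordinates in descending order. Probe A_55_P2186125 is shown whole, and the others by their first 30 bases.
F13a1 probe A_55_P2186125, chr13:37063829-37063888: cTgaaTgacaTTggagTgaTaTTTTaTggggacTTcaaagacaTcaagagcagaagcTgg
F13a1 probe A_55_P2739032, chr13:37061516-37061575: aaaTTagaaTggcaTcccagcacagTcagg
F13a1 probe A_51_P507801, chr13:36959214-36959273: cTggTTTacTTcTaagTcaTTgaTaggTTc
Serpinb2 probe A_51_P101146, chr1:109421496-109421555: TTggTagaTTcTccTcacccTaaaagggga
The first F13a1 probe lies 2253 bases from the next and 104555 bases from A_51_P507801. Over all of its bases, T made up 25% of A_55_P2186125, 23.3% of A_55_P2739032, 33.3% of A_51_P507801 and 30% of the Serpinb2 probe. The array design names A_55_P2739032 for a cDNA clone from CD11c-positive dendritic cells of the NOD mouse strain, and the other F13a1 probes for the RefSeq transcript. No annotation on mm9 was used here, so the exon or UTR that a probe lies in is not given.

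Levels below are log2 of the processed spot signal minus the array's 75th percentile, so 0 is the brightness at the 75th percentile of the array. A level can be compared between fractions for 1 probe, not between probes. In sorted bulk fractions, fewer cells that express a gene and less RNA per cell cannot be told apart. The sort marker Mrc1, the gene of CD206, was at 4.10 and 3.01 in Fr3 and at 0.98 and 0.65 in Fr2, but only at −3.75 and −3.19 in Fr1, neither of them well above background. Fr3 exceeded Fr1 at least 66.0-fold (limma adjusted p = 0.0713), where "at least" marks the use of a floor that is defined below. With each array left out in turn the log2 difference ran from 6.48 to 7.57. Over the other 9 alternatives it ran from 2.63 to 7.03. Adgre1, the gene of F4/80, lay between 4.70 and 6.29 on all 6 arrays. Itgax, the gene of CD11c, was at 0.52 and 1.29 in Fr3, 3.10 and 1.53 in Fr2 and 3.05 and 2.66 in Fr1, so the fraction sorted as CD11c-negative (Fr2) overlapped the CD11c-positive one on this probe.

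Between 44.6% and 52.0% of spots were well above background and 0 were saturated. Pearson's r between replicates, across 27874 probes that are not independent, was 0.780 for Fr3, 0.878 for Fr2 and 0.866 for Fr1. The slide and scan were common to Fr3 and Fr1, whereas Fr2 had a slide of its own: slide and fraction cannot be told apart in any comparison with Fr2. limma called no probe between Fr3 and Fr1 at an adjusted p under 0.05 (0%, 0 of 27874), against 2433 at an unadjusted p under 0.05. Between Fr3 and Fr2 it called 1 (0.00359%), which was no member, against 2696 unadjusted. Between Fr2 and Fr1 it called none (0%), against 2799 unadjusted. No member probe was called in any of the 3 comparisons.

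F13a1 and Serpinb2 lay at opposite ends of the set. F13a1, which encodes the catalytic A subunit of the fibrin-crosslinking transglutaminase factor XIII, was highest in Fr3 on both probes named for its RefSeq transcript; the third probe also had Fr3 highest, but was tested only because Fr3 passed the condition on brightness. Serpinb2, the gene of an inhibitor of urokinase, was near background in Fr3 and clearly measured in Fr2 and Fr1. The other 7 genes differed between the fractions by amounts whose 95% intervals all included 0.

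**Figure D1:**
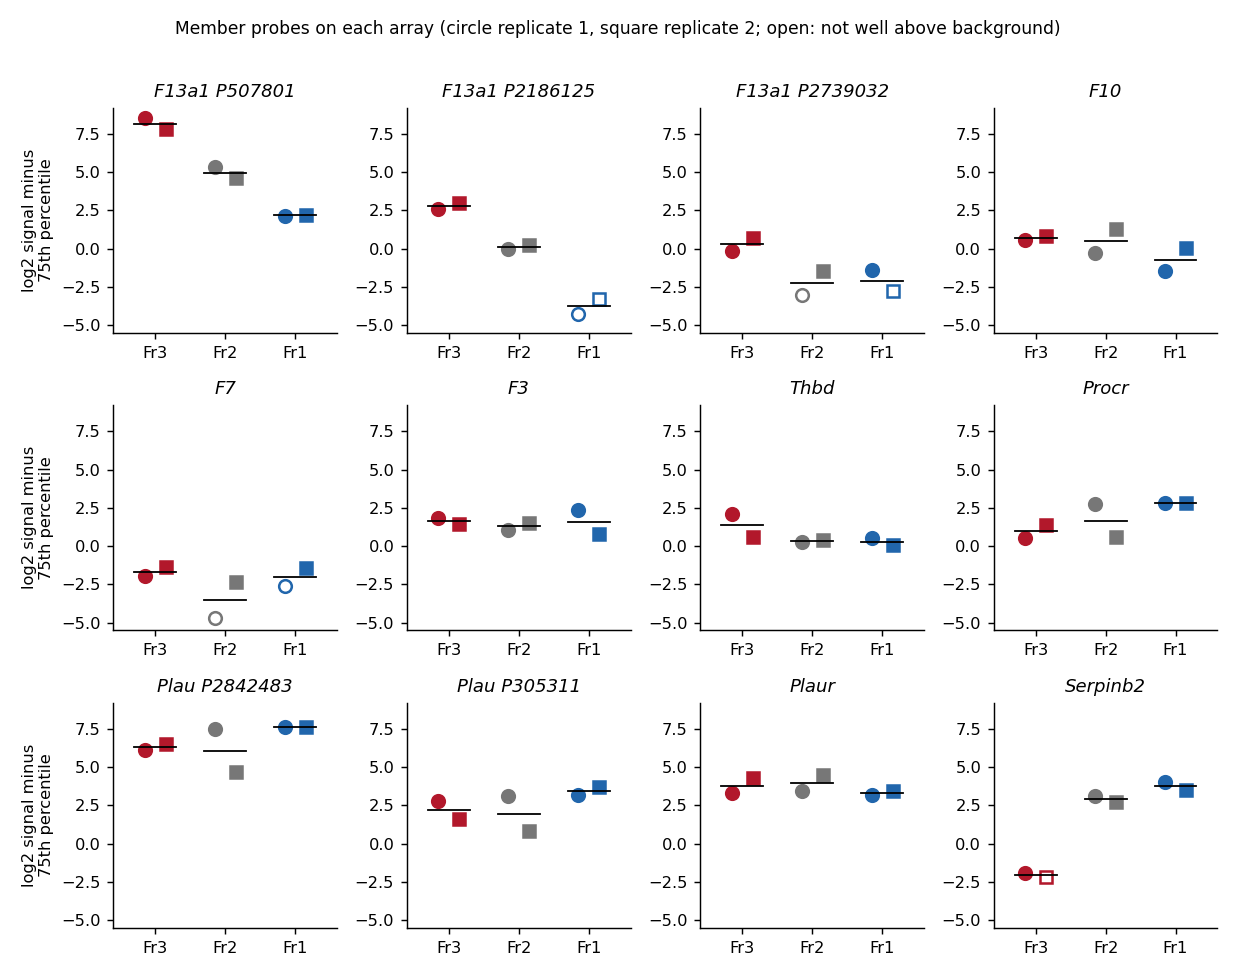
Level of each member probe on each of the 6 arrays (log2 signal minus the array's 75th percentile), with Fr3, Fr2 and Fr1 along the horizontal axis of each panel. Circles are replicate 1, squares replicate 2, open symbols arrays on which the probe was not well above background, and bars the mean of 2 arrays. The brightest F13a1 probe reaches 8.51 on an Fr3 array and 2.14 on an Fr1 array, and Serpinb2 sits near −2 in Fr3 alone.

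F13a1 was brightest on probe A_51_P507801, with levels of 8.51 and 7.78 in Fr3, 5.30 and 4.63 in Fr2 and 2.14 and 2.21 in Fr1. The means were 8.14 ± 0.51 in Fr3, 4.96 ± 0.47 in Fr2 and 2.18 ± 0.048 in Fr1 (SD, n = 2). The fractions therefore stood in 3 separate steps with no overlap between any of them. Fr3 was 62.6-fold above Fr1 (95% interval 23.3 to 168), a log2 difference of 5.97 ± 0.60 (SE, limma adjusted p = 0.0713). By p-value this was rank 10 of all 27874 probes in that comparison. Fr3 was 9.06-fold above Fr2 (log2 difference 3.18 ± 0.60, adjusted p = 0.156), and Fr2 was 6.90-fold above Fr1 (2.79 ± 0.60, adjusted p = 0.292).

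The call for this probe turned on the alternative chosen. Without replicate 1 of Fr3 the log2 difference between Fr3 and Fr1 was 5.60, and without replicate 2 it was 6.33, each from a lone Fr3 array. With only probes well above background on all arrays the adjusted p between Fr3 and Fr1 was 0.0101. Over all 16 alternatives it ranged from 0.0101 to 0.555. A fit on the slide that Fr3 and Fr1 share uses the same arrays of both, so the difference of 5.97 could not change. Its adjusted p there was 0.185.

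The F13a1 probe farthest from it, A_55_P2186125, gave the same order. Its levels were 2.57 and 3.01 in Fr3, −0.0096 and 0.21 in Fr2, and −4.24 and −3.28 in Fr1, where neither array was well above background. Fr3 was at least 38.8-fold above Fr1 (adjusted p = 0.0713, rank 6). Here and below, "at least" before a fold marks the use of a floor: the dim probe was set, on each array, to no less than the dimmest probe there that was well above background. Such a fold is not a strict lower bound, since some probes brighter than that floor were not well above background. Serpinb2 on replicate 2 of Fr3 (−2.16) was among them. The adjusted p and rank beside such a fold do not test it. They come from the limma fit on the levels as measured, for this probe a log2 difference of 6.55. Fr3 was 6.44-fold above Fr2 (log2 difference 2.69 ± 0.61, adjusted p = 0.218), and Fr2 was at least 6.02-fold above Fr1 (adjusted p = 0.221). Normexp background correction added an offset of 50 to every spot, while the 75th percentile of the processed signal was 22.0 to 35.4 on the arrays. After it the log2 difference between Fr3 and Fr1 was 2.14 in place of 6.55. That between Fr3 and Fr2 was 1.57 and that between Fr2 and Fr1 was 0.57. Without replicate 1 of Fr3 the log2 difference between Fr3 and Fr1 was 6.77, and without replicate 2 it was 6.33, each from a lone Fr3 array. With probes over 30% T left out of the fit the adjusted p of that difference was 0.0163 (range over 14 alternatives 0.0163 to 0.537).

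Probe A_55_P2739032 also had Fr3 highest, but not Fr2 above Fr1. It was at −0.13 and 0.71 in Fr3, −3.04 and −1.47 in Fr2 and −1.41 and −2.76 in Fr1, and 1 array each of Fr2 and Fr1 was not well above background. Both Fr3 arrays were above all others. The log2 difference was 2.37 ± 0.81 between Fr3 and Fr1 (5.18-fold, adjusted p = 0.459) and 2.54 ± 0.81 between Fr3 and Fr2 (5.83-fold, adjusted p = 0.371). Normexp gave 0.50 and 0.57 for these differences. Between Fr2 and Fr1 it was −0.17 ± 0.81 (95% interval −2.09 to 1.75, adjusted p = 0.965), with overlapping arrays, and it turned to 0.61 without replicate 1 of Fr2 and to 0.51 without replicate 1 of Fr1. The step between Fr2 and Fr1 thus rested on the 2 probes named for the RefSeq transcript.

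F10 encodes factor X, the protease that activates prothrombin. Its probe (chromosome 8, 13055774 to 13055833) was at 0.58 and 0.81 in Fr3, −0.30 and 1.31 in Fr2 and −1.48 and 0.021 in Fr1. The Fr3 arrays lay above both Fr1 arrays and inside the spread of Fr2. Fr3 minus Fr1 was 1.42 ± 0.80 on the log2 scale (95% interval −0.48 to 3.33, adjusted p = 0.616), and 0.42 after normexp. Fr3 minus Fr2 was 0.19 (−1.71 to 2.10, adjusted p = 0.938) and turned to −0.61 without replicate 1 of Fr2. The difference of Fr2 from Fr1 was 1.23 (−0.68 to 3.14, adjusted p = 0.641).

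F7 encodes factor VII, the protease that tissue factor binds. It was dim on its probe (chromosome 8, 13035287 to 13035346), at −1.94 and −1.39 in Fr3, −4.71 and −2.37 in Fr2 and −2.60 and −1.44 in Fr1. Replicate 1 of Fr2 and replicate 1 of Fr1 were not well above background. Fr3 lay above both Fr2 arrays, and the log2 difference was 1.88 ± 0.90 (95% interval −0.26 to 4.01, adjusted p = 0.560), or 0.11 after normexp. Against Fr1 the arrays overlapped, with a difference of 0.36 (−1.78 to 2.50, adjusted p = 0.945) that turned to −0.027 after normexp and to −0.22 without replicate 1 of Fr1. For Fr2 minus Fr1 the value was −1.52 (−3.65 to 0.62, adjusted p = 0.613).

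F3, the gene of tissue factor, was measured on all 6 arrays without a step between the fractions (chromosome 3, 121437717 to 121437776). Its levels were 1.82 and 1.46 in Fr3, 1.07 and 1.53 in Fr2 and 2.35 and 0.82 in Fr1, so the widest gap was between the replicates of Fr1. Fr3 minus Fr1 was 0.057 (95% interval −1.59 to 1.71, adjusted p = 0.993) and Fr3 minus Fr2 was 0.34 (−1.31 to 1.99, adjusted p = 0.869). Fr2 minus Fr1 was −0.28 (−1.94 to 1.37, adjusted p = 0.923). These intervals leave room for a difference of more than 3-fold either way between Fr3 and Fr1. Without replicate 2 of Fr1 the first of these differences turned to −0.71, and without replicate 1 of Fr1 the last turned to 0.48.

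Among the anticoagulant receptors, Thbd encodes thrombomodulin, which binds thrombin (chromosome 2, 148230235 to 148230294). It was at 2.13 and 0.63 in Fr3, 0.26 and 0.42 in Fr2 and 0.54 and 0.053 in Fr1. Both Fr3 arrays were above all others, and replicate 1 of Fr3 stood far above its replicate. The log2 difference was 1.08 ± 0.69 between Fr3 and Fr1 (95% interval −0.55 to 2.71, adjusted p = 0.641) and 1.04 ± 0.69 between Fr3 and Fr2 (−0.59 to 2.67, adjusted p = 0.615). Without replicate 1 of Fr3 these differences were 0.33 and 0.29. Fr2 and Fr1 differed by 0.044 (−1.59 to 1.67, adjusted p = 0.991).

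Procr, which encodes the receptor that presents protein C to the thrombin and thrombomodulin complex, ran the other way (chromosome 2, 155580945 to 155581004). It was at 0.55 and 1.36 in Fr3, 2.72 and 0.58 in Fr2 and 2.81 and 2.80 in Fr1. Both Fr3 arrays were below both Fr1 arrays, whereas the Fr2 replicates spanned the Fr3 values. Fr3 minus Fr1 was −1.85 ± 0.82 (95% interval −3.79 to 0.097, adjusted p = 0.594). Fr3 minus Fr2 was −0.70 (−2.64 to 1.25, adjusted p = 0.762) and turned to 0.37 without replicate 1 of Fr2. Fr2 minus Fr1 was −1.15 (−3.10 to 0.79, adjusted p = 0.671), and −0.082 without replicate 2 of Fr2.

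Plau encodes urokinase, the protease that activates plasminogen, and its 2 probes on chromosome 14 behaved alike. Probe A_55_P2842483 (21662487 to 21662546) was at 6.08 and 6.48 in Fr3, 7.48 and 4.65 in Fr2 and 7.62 and 7.597 in Fr1. Probe A_51_P305311 (21659855 to 21660221) was at 2.78 and 1.63 in Fr3, 3.09 and 0.79 in Fr2 and 3.14 and 3.70 in Fr1. On both probes the Fr3 arrays were below both Fr1 arrays and within the wide spread of Fr2. Fr3 minus Fr1 was −1.33 ± 0.94 (95% interval −3.56 to 0.90, adjusted p = 0.681) on the first probe and −1.21 ± 0.89 (−3.33 to 0.90, adjusted p = 0.694) on the second. Against Fr2, the Fr3 value was higher by 0.22 (adjusted p = 0.941) and 0.27 (adjusted p = 0.923), and these turned to −1.20 and −0.88 without replicate 2 of Fr2. Without replicate 1 of Fr3 the second probe gave −0.31. For Fr2 minus Fr1 the values were −1.54 (adjusted p = 0.617) and −1.48 (adjusted p = 0.616). These rested on the spread of Fr2: they were −2.96 and −2.63 without its replicate 1, and −0.13 and −0.33 without its replicate 2.

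Plaur, the gene of the urokinase receptor, was well above background on every array and overlapped among all fractions (chromosome 7, 25260569 to 25260628). Its levels were 3.32 and 4.26 in Fr3, 3.40 and 4.45 in Fr2 and 3.16 and 3.41 in Fr1. Fr3 minus Fr1 was 0.50 ± 0.66 (95% interval −1.07 to 2.07, adjusted p = 0.867) and Fr3 minus Fr2 was −0.14 (−1.71 to 1.43, adjusted p = 0.948). The first was 0.029 without replicate 2 of Fr3 and 0.97 without replicate 1 of Fr3. The second difference turned to 0.38 without replicate 2 of Fr2 and to 0.33 without replicate 1 of Fr3. Fr2 was above Fr1 by 0.64 (−0.93 to 2.21, adjusted p = 0.785).

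Serpinb2 encodes plasminogen activator inhibitor 2, a serpin that blocks urokinase. It was at −1.94 and −2.16 on the Fr3 arrays, of which replicate 2 was not well above background, against 3.10 and 2.72 in Fr2 and 4.01 and 3.47 in Fr1. The Fr3 arrays lay far below all others, and Fr2 lay just below Fr1 without overlap. The means were −2.05 ± 0.15 in Fr3, 2.91 ± 0.27 in Fr2 and 3.74 ± 0.38 in Fr1 (SD, n = 2). Fr3 was 55.6-fold below Fr1, a log2 difference of −5.80 ± 0.57 (SE, 95% interval −7.15 to −4.45, adjusted p = 0.0713, rank 8). It was 31.2-fold below Fr2 (−4.96 ± 0.57, interval −6.31 to −3.61, adjusted p = 0.0889, rank 15). These folds rest on Fr3 signals at the edge of background, and normexp gave log2 differences of −2.65 against Fr1 and −2.13 against Fr2. Fr2 minus Fr1 was −0.83 ± 0.57 (−2.18 to 0.52, adjusted p = 0.655).

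The Serpinb2 differences kept their direction under every alternative run, and their size depended on how dim signals were handled. Without replicate 1 of Fr3, which leaves a lone Fr3 array, Fr3 minus Fr1 was −5.91 and Fr3 minus Fr2 was −5.07. Without replicate 2 of Fr3 these were −5.69 and −4.85. With probes over 30% T left out of the fit, the adjusted p was 0.0168 between Fr3 and Fr1 and 0.0253 between Fr3 and Fr2. Over all alternatives it ranged from 0.0168 to 0.555 between Fr3 and Fr1 and from 0.0253 to 0.578 between Fr3 and Fr2.

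**Figure D2:**
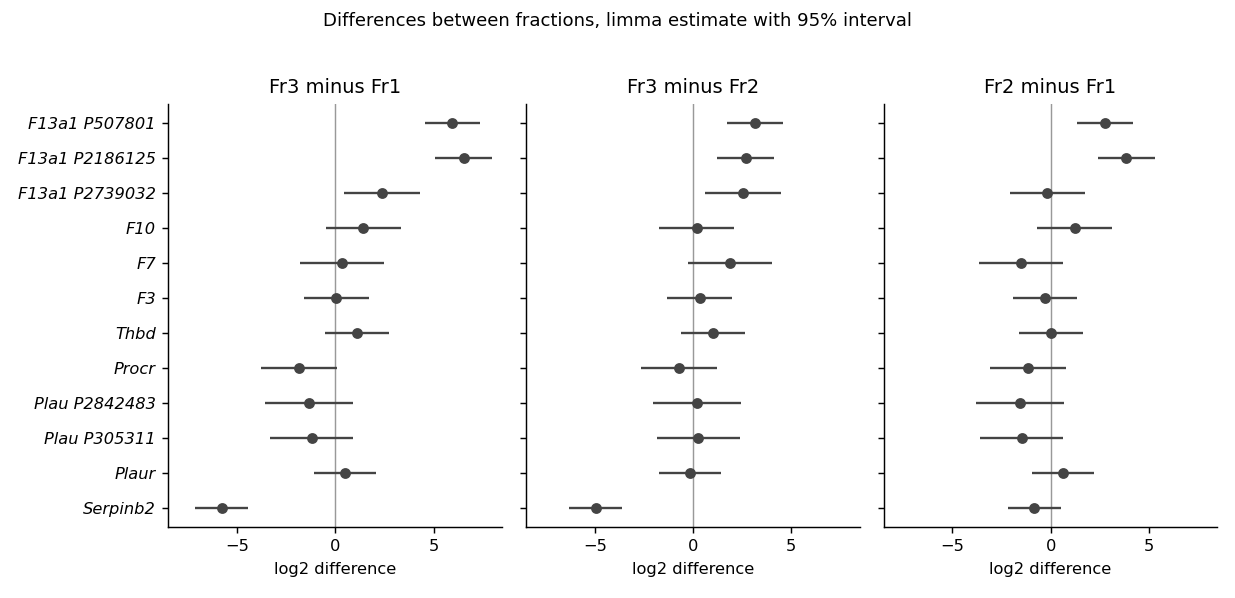
Log2 difference of each member probe between fractions, with the limma estimate as a point and its 95% interval as a line (2 arrays per fraction), for Fr3 minus Fr1, Fr3 minus Fr2 and Fr2 minus Fr1. Only F13a1 and Serpinb2 have intervals that leave out 0, at 5.97 and −5.80 between Fr3 and Fr1 for the brightest F13a1 probe and Serpinb2.

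Counted by gene, with the brightest probe for each, 1 member was higher in Fr3 than in Fr1 (F13a1) and 1 lower (Serpinb2) at an unadjusted p under 0.05, which 7.85% of all 20822 genes reached. Between Fr3 and Fr2 the same count was 1 higher (F13a1) and 1 lower (Serpinb2), against 8.47% of all genes. Between Fr2 and Fr1, 1 member was higher (F13a1) and 0 lower, against 9.22% of all genes. With 9 members, a count of 1 in a direction is read against these shares, and nothing is drawn from it beyond the values of the genes named. The median log2 difference of the members was 0.36, 0.22 and −0.28 for Fr3 minus Fr1, Fr3 minus Fr2 and Fr2 minus Fr1, beside 0.050, 0.077 and −0.035 over all genes.

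The rest of the pathway was read from 3 lists. Of 16 genes that form fibrin or belong to the contact phase, 7 were tested; prothrombin (F2), F8, F9, F11, F12, F13b, Fgg, Klkb1 and Kng1 had no probe that passed the condition on brightness. None of the 7 was called in any comparison. At an unadjusted p under 0.05, 1 was higher in Fr3 than in Fr1 and 2 were lower, and against Fr2 0 were higher and 2 lower. Between Fr2 and Fr1, 2 were higher and 0 lower. Over all genes the shares in either direction were 7.85%, 8.47% and 9.22% in that order of comparisons. The median log2 difference of the 7 was −0.079 for Fr3 minus Fr1, −0.56 for Fr3 minus Fr2 and 0.45 for Fr2 minus Fr1, to be read beside the medians over all genes above.

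F5, which encodes factor V, the cofactor with which factor X acts on prothrombin, had the widest range in that list. It was not well above background in Fr3 (−3.30 and −3.09), and was at 4.37 and 5.07 in Fr2 and 1.53 and 3.03 in Fr1. Fr3 was at least 204-fold below Fr2 (adjusted p = 0.0780) and at least 37.6-fold below Fr1 (adjusted p = 0.142), and Fr2 was 5.43-fold above Fr1 (adjusted p = 0.379). Against Fr2 the adjusted p was 0.0169 with probes over 30% T left out (range over 15 alternatives 0.0169 to 0.578). Without replicate 1 of Fr3, which leaves a lone Fr3 array, the log2 difference was −7.81 against Fr2 and −5.37 against Fr1. After normexp the log2 difference was −3.64 against Fr2 and −1.54 against Fr1.

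Tgm2 encodes tissue transglutaminase, which like factor XIII joins glutamine and lysine side chains. It was at 0.11 and −0.051 in Fr3, 3.85 and 5.49 in Fr2 and 3.74 and 4.16 in Fr1, the reverse of F13a1 in that Fr3 was lowest. Fr3 was 15.2-fold below Fr1 (log2 difference −3.92 ± 0.71, adjusted p = 0.180) and 24.9-fold below Fr2 (−4.64 ± 0.71, adjusted p = 0.115). Fr2 minus Fr1 was 0.72 with overlapping arrays (adjusted p = 0.773). Between Fr3 and Fr2 the adjusted p was 0.0429 for probes above background on all arrays and 0.0448 without T-rich probes. Over 16 alternatives it ranged up to 0.625. Without replicate 1 of Fr3 the log2 difference was −4.72, from a lone Fr3 array.

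Fgb, the gene of the fibrinogen beta chain, was not well above background in Fr1 (−2.995 and −2.95), and was at −1.01 and −0.43 in Fr3 and 1.53 and −1.01 in Fr2. Fr3 was at least 3.40-fold above Fr1 (adjusted p = 0.544) and Fr2 at least 6.72-fold above Fr1 (adjusted p = 0.353). After normexp these log2 differences were 0.19 in place of 2.25 and 0.61 in place of 3.23. Vwf, the gene of von Willebrand factor, which carries factor VIII and tethers platelets, was at 1.60 and 2.47 in Fr3, 0.29 and 1.32 in Fr2 and 2.29 and 1.93 in Fr1. Its difference between Fr3 and Fr1 was −0.079 (adjusted p = 0.989).

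Of 14 anticoagulants and thrombin receptors, 8 were tested and none was called. At an unadjusted p under 0.05, 2 were higher in Fr3 than in Fr1 and 1 lower, 1 was higher in Fr3 than in Fr2 and 1 lower, and 2 were higher in Fr2 than in Fr1 and 0 lower. In either direction, 7.85%, 8.47% and 9.22% of all genes reached that p in these comparisons. Their median log2 difference was 0.29 for Fr3 minus Fr1, 0.97 for Fr3 minus Fr2 and −0.35 for Fr2 minus Fr1. Pros1, which encodes protein S, a cofactor of activated protein C and a ligand for receptors of apoptotic cell uptake, was at 6.14 and 5.51 in Fr3, 5.43 and 4.19 in Fr2 and 3.20 and 2.18 in Fr1. Fr3 was 8.75-fold above Fr1 without overlap (log2 difference 3.13 ± 0.71, adjusted p = 0.252). Tfpi, the gene of the inhibitor of the tissue factor and factor VII complex, passed the condition on brightness through Fr3 alone (−1.57 and −0.49). Fr3 was at least 3.63-fold above Fr2 (adjusted p = 0.351) and at least 2.74-fold above Fr1 (adjusted p = 0.484), but after normexp the log2 differences were only 0.28 and 0.18.

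F2r, which encodes the thrombin receptor PAR1, was measured on both arrays only in Fr2 (1.81 and 2.04). It was not well above background on either Fr3 array (−4.56 and −3.93), and in Fr1 it was at −0.49 and −3.09, the second of these not above background. Fr3 was at least 30.1-fold below Fr2 (adjusted p = 0.112). Without replicate 1 of Fr3, which leaves a lone Fr3 array, the log2 difference was −5.86. After normexp it was −1.43 in place of −6.17. Anxa5, the gene of annexin A5, which covers the phospholipid on which clotting factors assemble, was at 3.66 and 3.98 in Fr3, 3.00 and 1.70 in Fr2 and 2.41 and 2.87 in Fr1. Fr3 was 2.27-fold above Fr1 (adjusted p = 0.615) and 2.78-fold above Fr2 (adjusted p = 0.540).

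Of 14 genes of the plasminogen system beside the members, 12 were tested and none was called; Plat, the gene of tissue plasminogen activator, and A2m did not pass the condition on brightness. At an unadjusted p under 0.05, 1 was higher in Fr3 than in Fr1 and 0 lower, 1 was higher in Fr3 than in Fr2 and 1 lower, and 2 were higher in Fr2 than in Fr1 and 1 lower; these counts lie beside 7.85%, 8.47% and 9.22% of all genes in either direction. The median log2 differences of this list, in the same order of comparisons, were 0.031, −0.066 and 0.096. S100a10, which encodes a surface binding partner of plasminogen, was at 5.11 and 5.68 in Fr3, 3.99 and 5.24 in Fr2 and 3.11 and 3.48 in Fr1 (Fr3 4.30-fold above Fr1, adjusted p = 0.410). Thbs1, the gene of thrombospondin 1, was at −0.51 and −0.81 in Fr3, 1.38 and 2.80 in Fr2 and 0.32 and −0.81 in Fr1 (Fr3 6.74-fold below Fr2, adjusted p = 0.284). Mrc2, which encodes a collagen receptor that associates with the urokinase receptor, passed the condition on brightness through Fr3 alone. It was at −1.91 and −1.19 in Fr3, −2.64 and −3.50 in Fr2 and −1.41 and −1.52 in Fr1, so that Fr3 and Fr1 overlapped (log2 difference −0.090, adjusted p = 0.987). Fr3 was at least 2.31-fold above Fr2 (adjusted p = 0.504), with a log2 difference of 0.096 after normexp. Eno1, the gene of the glycolytic enzyme enolase 1, which also binds plasminogen at the cell surface, was at 3.79 and 3.38 in Fr3, 4.46 and 4.83 in Fr2 and 3.13 and 3.17 in Fr1, highest on both Fr2 arrays. Fr2 was 2.82-fold above Fr1 (adjusted p = 0.458), without overlap.

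**Figure D3:**
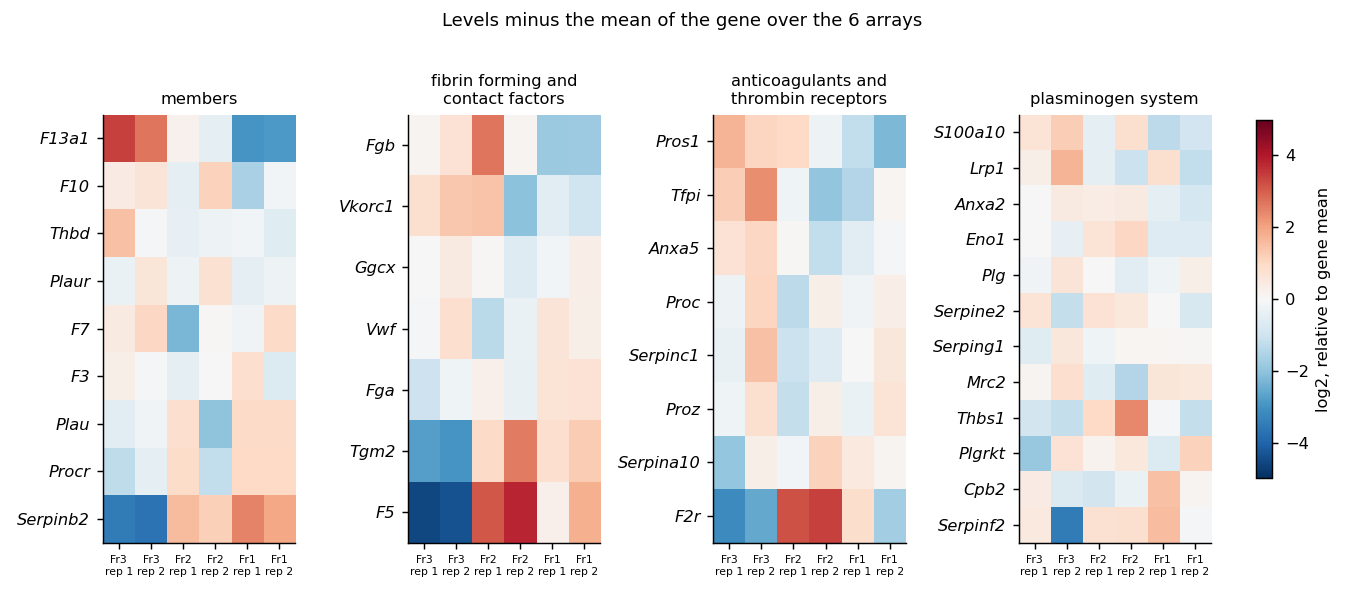
Level of each tested gene on each array minus the gene's mean over the 6 arrays (log2, red above and blue below), for the 9 members and the 3 pathway lists, with the brightest probe per gene and the Fr3, Fr2 and Fr1 arrays from left to right. F13a1 is red on both Fr3 arrays, and Serpinb2, F5, Tgm2 and F2r are blue there.

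The levels most like those of F13a1 were sought among genes whose level spanned at least 3 log2 units over the 6 arrays. Of 5580 such genes, 3783 were compared, after clone, accession, Gm, LOC, RIKEN, miRNA and lincRNA names were left out. By Pearson's r over 6 arrays, which share 2 slides, they were Plekhg5 (r = 0.997), Pop5 (0.996), Slc40a1 (0.996), Pf4 (0.991) and Ocrl (0.987). Plekhg5 encodes a guanine nucleotide exchange factor, Pop5 a subunit of ribonuclease P, and Slc40a1 the iron exporter ferroportin. Pf4, the gene of platelet factor 4, was at 6.08 and 5.30 in Fr3, 3.10 and 1.11 in Fr2 and −1.14 and −1.61 in Fr1. Ocrl was tested only because Fr3 passed the condition on brightness, and Plekhg5 and Slc40a1 were not well above background in Fr1. These r values describe a shared order of fractions in a handful of arrays.

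Since factor XIII, platelet factor 4 and several other proteins here are also carried by platelets, platelet and megakaryocyte markers were read beside F13a1. Of 13 markers 8 were tested, and Gp5, Gp9, Tubb1, Clec1b and Mmrn1 had no probe that passed the condition on brightness. Pf4 was not on this list but was counted among the resident macrophage markers below. It was higher in Fr3 than in Fr1 by 7.07 ± 0.80 on the log2 scale (SE, limma adjusted p = 0.111), so the counts here hold without it. The mean level of the tested markers was 0.38 and −0.26 in Fr3, −0.61 and 0.43 in Fr2 and 0.63 and 0.28 in Fr1, with overlap among all fractions. At an unadjusted p under 0.05, 0 of 8 differed between Fr3 and Fr1 (7.85% of all genes did), and their median log2 difference was −0.053. Alox12, a lipoxygenase gene, was lower in Fr3 than in Fr2 at that p (8.47% of all genes; at least 4.09-fold, adjusted p = 0.316), and Gp1ba was lower in Fr2 than in Fr1 (9.22% of all genes; log2 difference −4.48, adjusted p = 0.452). The platelet integrin gene Itga2b was the one furthest toward Fr3, by 0.97 (adjusted p = 0.791), and Gp1ba the one furthest toward Fr1, by −2.85 (adjusted p = 0.616).

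The resident CD206-high macrophage markers had their highest mean level in Fr3, as F13a1 did, and their part in its differences was not tested. All 12 were tested, and their mean level was 4.30 and 3.66 in Fr3, 1.03 and −0.38 in Fr2 and −0.96 and −0.88 in Fr1. The range of single members ran from Cd209f, a lectin gene, at a log2 difference of 7.57 between Fr3 and Fr1, to Cd209g at 0.58. None was called after adjustment over all probes, and 10 of 12 were higher in Fr3 than in Fr1 at an unadjusted p under 0.05, which 7.85% of all genes reached in either direction. Mrc1, the gene of the sort marker CD206, is among these 10, and the list was drawn up for the kind of cell that Fr3 was sorted for. Against Fr2, 11 of 12 were higher in Fr3 at that p (8.47% of all genes in either direction). Between Fr2 and Fr1, where F13a1 also stepped up on its RefSeq probes, 4 of 12 were higher in Fr2 and 0 lower (9.22% of all genes in either direction). Their log2 differences there ran from −1.63 for Timd4 to 4.28 for Mrc1. The median was 1.55, beside −0.035 over all genes.

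Some other marker lists had their lowest mean level in Fr3, as Serpinb2, F5 and Tgm2 did. Neutrophil markers averaged 0.62 and 0.49 in Fr3, 4.002 and 4.04 in Fr2 and 1.12 and 1.16 in Fr1 (11 of 12 tested). Eosinophil and mast cell markers averaged −0.76 and −0.18 in Fr3, 2.49 and 3.45 in Fr2 and 0.99 and 1.08 in Fr1 (9 of 12 tested). Both lists averaged highest in Fr2, whereas Serpinb2 was highest in Fr1. The means of F5 (4.72 in Fr2, 2.28 in Fr1), Tgm2 (4.67 and 3.95, with overlapping arrays) and F2r (1.93 and −1.79) were highest in Fr2. At an unadjusted p under 0.05 (7.85% of all genes), 1 neutrophil marker was higher in Fr3 than in Fr1 and 4 lower. For eosinophil and mast cell markers these counts were 0 and 4. Fr3 minus Fr1 ran from −2.42 for Elane to 2.53 for Ltf among neutrophil markers. It ran from −5.26 for Prg2 to 1.25 for Ear6 among eosinophil and mast cell markers. Against Fr2, 0 neutrophil markers were higher in Fr3 and 9 lower at that p (8.47% of all genes in either direction). The counts for eosinophil and mast cell markers were 0 and 6. Median Fr3 minus Fr2 was −3.42 for the neutrophil list and −2.26 for the other, beside 0.077 over all genes. Conventional dendritic cell markers averaged −1.48 and −1.57 in Fr3, −0.54 and −0.55 in Fr2 and 0.47 and −0.019 in Fr1 (11 of 12 tested). The log2 of their summed signal did not follow that order, at 4.61 and 5.89 in Fr3, 5.67 and 4.98 in Fr2 and 5.03 and 4.41 in Fr1. At an unadjusted p under 0.05, 1 dendritic cell marker was higher in Fr3 than in Fr1 and 6 were lower (7.85% of all genes in either direction). Against Fr2, 0 were higher and 1 lower (8.47%). Fr3 minus Fr1 had a median of −1.95 in this list. It ran from −3.97 for Clec9a to 1.96 for Cd209a, a lectin gene (adjusted p = 0.538). The part of any of these cells in the differences of Serpinb2, F5, Tgm2 and F2r was not tested.

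Monocyte markers averaged 0.44 and 0.97 in Fr3, 3.58 and 3.68 in Fr2 and 1.13 and 0.63 in Fr1 (10 of 10 tested), so Fr3 and Fr1 overlapped. Endothelial cells are a main source of Thbd, Procr and Vwf in tissue; of 12 endothelium markers only 5 were tested, and Pecam1, Kdr, Tie1, Tek, Emcn, Esam and Sele did not pass. The tested ones averaged −2.25 and −1.87 in Fr3, −0.29 and −0.46 in Fr2 and −2.21 and −1.16 in Fr1. Epithelium markers averaged −0.18 and 0.022 in Fr3, 0.87 and 0.56 in Fr2 and −0.24 and −0.54 in Fr1 (8 of 12 tested). Fibroblast markers averaged −0.62 and −1.10 in Fr3, 0.0072 and −0.76 in Fr2 and −0.88 and −2.02 in Fr1 (8 of 10 tested).

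**Figure D4:**
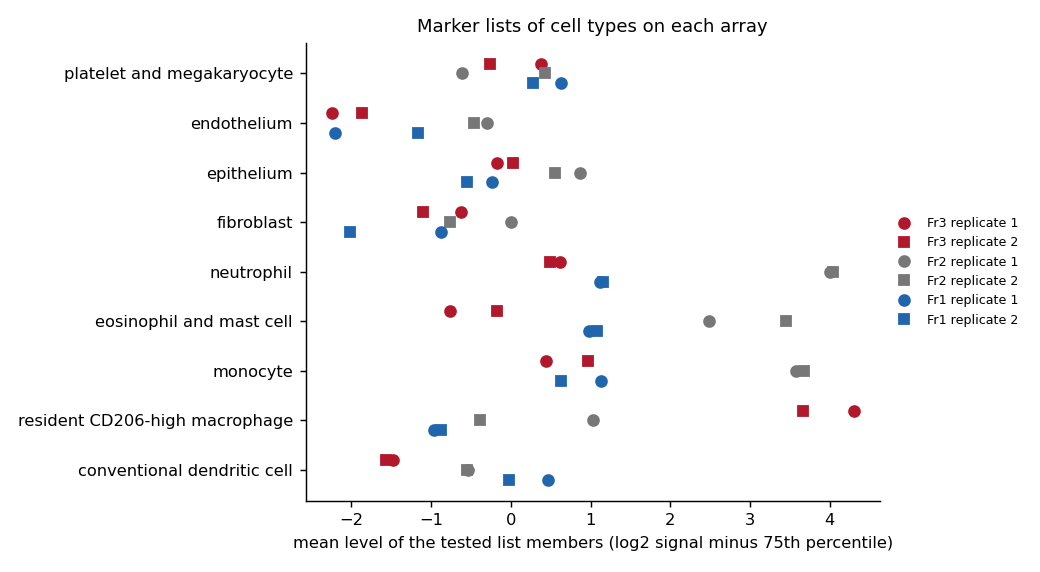
Mean level of the tested members of each cell type marker list on each array (log2 signal minus the array's 75th percentile), with Fr3 in red, Fr2 in grey and Fr1 in blue, circles for replicate 1 and squares for replicate 2. Platelet markers, without Pf4, overlap among the fractions, and the resident macrophage markers, with Pf4, sit at 3.66 or above on the Fr3 arrays only.

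The 2 Fr3 arrays differed by the T content of the probe, which bears on single members. Over all tested probes, replicate 2 minus replicate 1 of Fr3 had a median of 0.72 for probes under 20% T and −1.36 for probes with 40% T or more. For the same bins, Fr2 had medians of 0.19 and 0.0041 and Fr1 of 0.45 and −0.91. The bright F13a1 probe, with 33.3% T, differed by −0.73 between the Fr3 arrays, against a median of 0.13 (quartiles −0.76 and 0.79) for 1674 probes with as many T bases. Thbd, with 35% T, differed by −1.50 against a median of 0.0055 (quartiles −1.09 and 0.70), so its difference lay outside the middle range of like probes. Plau on A_51_P305311 (−1.15, quartiles −0.76 and 0.79) and, narrowly, Plaur (0.94, quartiles −0.52 and 0.92) also lay outside theirs. A_55_P2186125 differed by 0.44 against 0.54, and Serpinb2 by −0.22 against 0.32. The part of T content in the differences between fractions was not tested.

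**Figure D5:**
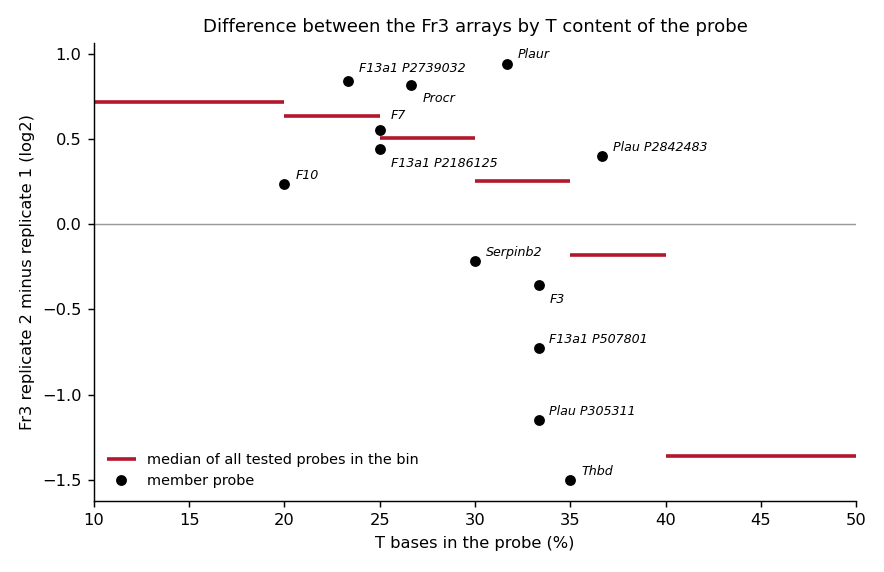
Difference between the Fr3 replicates (replicate 2 minus replicate 1, log2) against the percentage of T bases in the probe, with member probes as points and the median of all tested probes in each bin as red lines. The bin medians run from 0.72 at low T to −1.36 at high T, and Thbd lies lowest among the members at −1.50.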

How the data were processed

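Per the file headers, the authors made the intensity values in Agilent Feature Extraction 11.5.1.1, subtracting background, detrending and replacing dim spots by surrogates. The authors' deposited value table held log2 values with column medians between −2.44 and −2.25; it correlated with the scanner values at r of at least 0.9999 on each array and served as an alternative. Spots of a probe were averaged, 4 probes with an outlier flag on a single spot were left out, and log2 signals were set relative to each array's 75th percentile. Probes that were well above background in both replicates of some fraction were fitted with limma 3.58.1 in R 4.3.3 (3 group means, 6 arrays), with Benjamini-Hochberg adjustment over 27874 probes and a threshold of 0.05. The precision is limited by 2 arrays per fraction. Names came from the files and a RefSeq table (GRCm38.p6), which matched 32992 probes by accession, 10223 by symbol and 520 by synonym; 12866 kept the file's name.

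The text names all members, the sort markers, the 4 genes with the smallest F-test p in each pathway list, the extremes of marker lists that moved with a member, and the 5 genes most like F13a1. Members and lists were chosen with earlier results of these data known, and some list genes are not reported here. Alternatives were normexp (offset 50), the authors' table, median or quantile scaling, other filters on dim probes, leaving out probes over 30% T, other rules for several probes of a gene, the replicate number as a block, the shared slide alone, and each array left out. The fit was tested on simulated data before use.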

Additional observations from a re-analysis of the deposited data

How the results depend on the processing

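All 81 differences of the named genes and probes kept their direction and their side of the threshold with the authors' value table and with median or quantile scaling. With no filter on dim probes, or with the replicate number as a block, the differences are the same by construction. The same holds for the 27 of Fr3 minus Fr1 on the shared slide alone, which leaves out only Fr2. In these fits only the adjusted p could move, and every difference stayed on its side of the threshold. The counts of called probes did move. Between Fr3 and Fr1, where 0 were called, there was 1 with probes above background on all arrays, 10 with probes over 30% T left out, 1 with the brightest probe per gene and 1 with the mean of a gene's probes. Between Fr3 and Fr2, where 1 was called, there were 16 with normexp, 0 with median scaling, 0 with quantile scaling, 0 with no filter, 11 with probes above background on all arrays, 58 with probes over 30% T left out and 0 with the replicate block. Between Fr2 and Fr1 leaving out T-rich probes gave 1. The F-test, which called 0, called 3 with probes above background on all arrays, 44 with T-rich probes left out, 1 with the brightest probe per gene and 1 with the mean of probes. Leaving out each array in turn gave 0 to 1332 called probes between Fr3 and Fr1 and 0 to 688 between Fr3 and Fr2; both high counts came without replicate 1 of Fr3, where the lone Fr3 array is assumed to vary like the other fractions. The cause of these shifts was not tested. The replicate numbers were not taken as pairs, since the deviations of same-numbered arrays correlated at 0.396 for Fr3 and Fr1, but at 0.0277 for Fr3 and Fr2 and 0.0988 for Fr2 and Fr1; the block changed no call of a member. By setting, the sign turned with normexp for F7 (−0.027) and Vwf (0.028), both Fr3 minus Fr1, and with the mean of probes for Vwf (0.080) and Eno1 (−0.28) in Fr3 minus Fr1 and for Itgax in Fr2 minus Fr1 (0.035). With each array left out in turn, Fr3 minus Fr1 ranged over 0 for F7 (−0.22 to 0.94), F3 (−0.71 to 0.82), Vwf (−0.52 to 0.36), Thbs1 (−0.98 to 0.15) and Mrc2 (−0.45 to 0.27). Fr3 minus Fr2 did so for F10 (−0.61 to 1.00), Procr (−1.76 to 0.37), Plau (−1.20 to 1.63 on A_55_P2842483 and −0.88 to 1.41 on A_51_P305311), Plaur (−0.66 to 0.38) and Fgb (−2.25 to 0.29). Fr2 minus Fr1 did so for F13a1 on A_55_P2739032 (−0.95 to 0.61), F3 (−1.05 to 0.48), Thbd (−0.20 to 0.29), Tgm2 (−0.10 to 1.54), Tfpi (−1.29 to 0.46), Anxa5 (−0.94 to 0.36) and Itgax (−1.33 to 0.25). With 2 arrays per fraction, and signals near background for F7, A_55_P2739032, Tfpi and Mrc2, these differences have wide intervals.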
